A study of Homo sapiens with 4 samples.

Results

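The change in gene expression after 72 h in charcoal stripped serum (CSS) was taken in LAPC4 cells that carried a control vector. LAPC4 is an established human prostate cancer cell line that grows in response to androgen. The control cells were infected with GFP according to the labels, and carried no β-TrCP knockdown. They were grown for 72 h in RPMI medium either with 10% fetal calf serum (FCS) and 100 pM methyltrienolone, a synthetic androgen, or with 10% CSS and no added androgen. The serum and the added androgen changed together, so their effects cannot be told apart. Each medium and vector was measured once, on an Affymetrix U133 array, and the 2 arrays of control cells were compared here. The other 2 of the 4 arrays came from cells infected with a β-TrCP shRNA and grown in the same 2 media.

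The probe sets described were those with a deposited log2 signal of at least 4.32, which is a signal of 20, on either control array. They numbered 13343 of the 22215 probe sets that are not array controls, or 60.1%. Of these, 12554 were above the floor on both arrays, 417 in FCS only and 372 in CSS only. The 100 members closest to the floor had a higher signal of 4.32 to 4.33, and the probe sets just outside lay at 4.30 to 4.32. A single gene was named for 11770 members, several for 691 and none for 882. A gene was read from its brightest probe set. This gave 7887 genes, of which 7485 had a signal above the floor on both arrays and so a measured change.

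The androgen receptor is a nuclear receptor that binds androgens, enters the nucleus and activates genes of prostate secretion, metabolism and growth. Activated charcoal removes androgens from serum, together with other steroids, thyroid hormones and further small lipophilic molecules, and so withdraws more than a single hormone. Removal of androgen is known to slow the division of androgen-sensitive prostate cancer cells, which then collect in the G1 phase. Genes of DNA replication are under the control of E2F factors, which peak at the start of S phase, and genes of mitosis are under the control of complexes that bind the CHR and CCAAT motifs.

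All changes below are CSS minus FCS on the log2 scale, with 1 array a side, so no p-value or replicate error can be given. The median change of the 7485 genes was 0.03, with quartiles of -0.14 and 0.20. The local spread of a gene, which is the scaled median absolute deviation of the change over the 1000 probe sets closest to it in mean signal, ran from 0.13 to 0.32 with a median of 0.29. It describes how far any probe sets of that brightness differed between the 2 arrays, whatever the reason. A fold of 1.5 was used to count genes, which is a log2 change of 0.585.

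In CSS, 225 of the 7485 genes, which is 3.01% of them, had a signal at least 1.5-fold above that in FCS, and 167, or 2.23%, at least 1.5-fold below it. At 2-fold the counts were 18 higher (0.24%) and 10 lower (0.134%). Counted over the 12554 probe sets instead, 358 were past 1.5-fold higher and 401 past 1.5-fold lower, so that the larger side depends on the unit of counting. By any amount, 54.7% of the genes were higher and 45.1% lower. Among the gene lists examined, those of DNA replication, mitosis and the metallothioneins were lower in CSS, and those of the integrated stress response and fatty acid synthesis were higher. Androgen target genes stood on both sides, and the secreted protease KLK3 was among the 15 largest increases of genes no dimmer than the median whose probe sets all went 1 way.

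**Figure D1:**
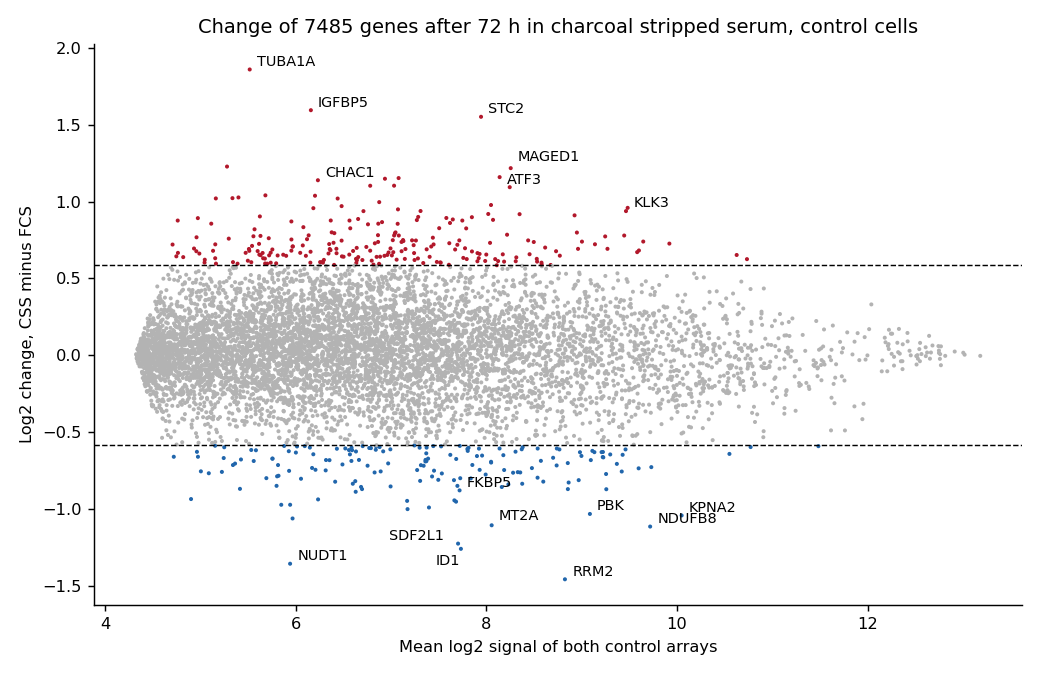
Each point is 1 of the 7485 genes measured on both control arrays, with its mean log2 signal on the x axis and its log2 change, CSS minus FCS, on the y axis; dashed lines mark 1.5-fold, and coloured points lie past it. RRM2 had a change of -1.46, KLK3 of 0.94 and STC2 of 1.55, and the widest scatter was at middle signal.

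Quality values of the 2 arrays bear on these changes. The arrays correlated at r = 0.986 over the members, and 41.6% and 41.8% of all probe sets were under the floor in FCS and CSS. The 3′ probe set of ACTB was brighter than the 5′ probe set by 0.45 in FCS and by 1.03 in CSS, against 0.41 and 0.44 on the shRNA arrays, so that the ACTB transcript was measured lower at its 5′ end in CSS by 0.52 and higher at its 3′ end by 0.06. The same gap for GAPDH was -0.01 in FCS and 0.18 in CSS. All 9 hybridization controls above the floor on both arrays were higher in CSS, by a median of 0.29 (0.11 to 0.43). The part of these array differences in the changes of single genes was not tested. Of the cell type markers on the array, 8 of 10 for luminal prostate epithelium were measured, KLK2, KLK3 and KRT8 among them, and 4 of 8 for basal epithelium, against 2 of 11 for fibroblasts, 1 of 9 for leukocytes and 0 of 7 for endothelium.

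Genes of the cell division cycle were lower in CSS across the lists of each of its steps. The 9 lists, from origin licensing to mitotic motors, held 202 measured genes, of which 174 were lower (86.1%, against 45.1% of all genes) and 27 higher. At least 1.5-fold lower were 36 of them, or 17.8% against 2.23% of all genes, and none was 1.5-fold higher. Their median change was -0.28, against 0.03 for all genes. They made up 21.6% of the 167 genes past 1.5-fold lower and 2.7% of all genes.

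Deoxynucleotide synthesis held the largest decrease of the genes with at least median signal. RRM2, the subunit of ribonucleotide reductase that limits its activity in S phase, had a log2 signal of 9.55 in FCS and 8.10 in CSS, a change of -1.46 or 2.74-fold lower. This was 4.88 times its local spread of 0.30, and its other probe set gave -1.02. RRM1, the large subunit of the same enzyme, went from 9.29 to 8.42 (-0.87), with -1.26 on its other probe set. Both subunits were thus lower on every measured probe set. TYMS, which makes thymidylate, had 8.40 in FCS and 7.70 in CSS, a change of -0.70. The salvage kinases TK1 (-0.58) and DCK (-0.54) were lower by under 1.5-fold. Of the 19 genes of the list, 14 were lower and 5 higher, 3 past 1.5-fold, with a median of -0.32. Outside the list, NUDT1, which clears oxidised nucleotides from the pool, went from 6.62 to 5.26 (-1.36).

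At the replication fork, 28 of 31 genes were lower, 8 of them at least 1.5-fold, with a median of -0.34. PCNA, the sliding clamp of the DNA polymerases, went from 9.80 to 9.04 (-0.76). GINS1, a subunit of the replicative helicase, went from 8.14 to 7.19 (-0.94). CDC45, POLE2, MCM10 and DNA2, further fork proteins, had changes between -0.69 and -0.67 at lower signal. The largest of the 3 increases was that of GINS4, a partner of GINS1 in the same complex, with a dim signal of 4.43 in FCS and 4.98 in CSS (0.56). Of the 17 origin licensing genes, which load the helicase in G1, 14 were lower, 2 of them 1.5-fold: CDC6 went from 7.27 to 6.51 (-0.76, and -0.67 on its other probe set) and MCM7 from 8.68 to 8.07 (-0.61).

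Chromatin assembly, repair and G1/S genes followed with smaller medians. Of 15 chromatin assembly genes 14 were lower, 3 past 1.5-fold, with a median of -0.28, and among them was HMGB2, a chromatin protein of dividing cells, with 9.97 in FCS and 9.23 in CSS. Of 18 genes of homologous recombination and fork repair 14 were lower, with a median of -0.25. The checkpoint kinase CHEK1 went from 6.33 to 5.36 (-0.97, and -0.60 on its other probe set), and the nuclease EXO1 from 7.13 to 6.26 (-0.87). Cyclins and E2F factors were the least uniform group: 15 of 22 were lower and 7 higher, with a median of -0.18, or -0.36 with a floor of 100. Those past 1.5-fold were the S phase cyclins CCNE2 (6.46 to 5.65, -0.80) and CCNA2 (6.87 to 6.25, -0.62) and their partner kinase CDK2 (7.30 to 6.69, -0.61).

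Mitotic genes were lower in nearly every case. Of 20 kinetochore and spindle checkpoint genes 19 were lower, 6 past 1.5-fold, and their median of -0.44 was the lowest of the 9 lists. MAD2L1, which holds cells in metaphase until chromosomes attach, went from 7.03 to 6.22 (-0.82), and CENPM and CENPN, proteins of the inner kinetochore, from 8.07 to 7.25 (-0.81) and from 8.13 to 7.33 (-0.80). Of 39 genes of motors, cohesin and condensin 36 were lower, 7 past 1.5-fold, with a median of -0.31. CDC20, the activator of the anaphase-promoting complex, went from 9.64 to 8.87 (-0.77). ECT2, needed for cytokinesis, went from 7.42 to 6.57 (-0.85), and TOP2A, which untangles chromosomes, from 9.55 to 8.89 (-0.66). Of 21 mitotic entry genes 20 were lower, with a median of -0.27, led by the kinase PBK (9.60 to 8.57, -1.03) and by PLK4, the kinase of centriole duplication (6.70 to 5.77, -0.94).

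The promoters of PCNA and CDC20 are shown because their letters stand for the contrast between replication and mitosis. They run from 250 bases before to 50 after the start of the gene, 5′ to 3′ on the gene's strand, in RefSeq on GRCh38.p14. PCNA lies at chr20:5126573-5126872 on the minus strand, and its capitals mark an E2F match (TTTCCCGC read on the other strand) at -59 from the start and CCAAT, in either orientation, at -152, -79 and -25. CDC20 lies at chr1:43358731-43359030 on the plus strand, and its capitals mark CHR (TTTGAA or its reverse) at -178 and -65 and CCAAT at -100 and -55.
PCNA: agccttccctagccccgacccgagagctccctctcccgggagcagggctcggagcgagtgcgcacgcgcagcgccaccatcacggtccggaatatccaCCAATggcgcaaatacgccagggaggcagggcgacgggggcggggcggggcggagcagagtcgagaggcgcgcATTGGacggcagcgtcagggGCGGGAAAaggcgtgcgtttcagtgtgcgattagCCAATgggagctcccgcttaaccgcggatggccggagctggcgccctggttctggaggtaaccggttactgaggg
CDC20: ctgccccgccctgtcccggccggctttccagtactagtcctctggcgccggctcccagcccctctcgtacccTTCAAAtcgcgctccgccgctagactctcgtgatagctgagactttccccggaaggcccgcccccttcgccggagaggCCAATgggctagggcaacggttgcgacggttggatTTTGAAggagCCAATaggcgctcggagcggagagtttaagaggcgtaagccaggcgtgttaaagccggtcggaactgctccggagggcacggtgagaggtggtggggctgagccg

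The 3 E2F words searched on both strands were TTTCCCGC, TTTGGCGC and TTTCGCGC, the CHR words TTTGAA and TTCGAA, and the third motif CCAAT. An E2F word stood in 2.79% of the 27305 promoters of the table and in 4.93% of the 6207 promoters of measured genes, but in 7 of 15 promoters of origin licensing genes (46.7%) and in 10 of 26 of fork genes (38.5%). A CHR word stood in 16.6% of all promoters and 10.5% of those of measured genes. It was in 12 of 16 kinetochore promoters (75%), 26 of 35 of motors, cohesin and condensin (74.3%) and 8 of 14 of mitotic entry (57.1%), and in 0 of 26 fork promoters. CCAAT stood in 35.7% of all promoters, in 38.2% of those of measured genes and in 24 of these 35 motor, cohesin and condensin promoters (68.6%). It was also in 15 of 26 fork promoters (57.7%) and 12 of 14 of chromatin assembly (85.7%). Of lists with a higher median in CSS, sterol synthesis and LDL uptake held it in 14 of 16 promoters (87.5%). The integrated stress list held it in 14 of 23 (60.9%), so CCAAT did not set the lower lists apart. The promoter of RRM2 held CCAAT 3 times and none of the E2F or CHR words.

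The same words can be read from the genes that changed. Of the genes at least 1.5-fold lower, 141 had a promoter in the table, of which 35 held a CHR word (24.8%) and 16 an E2F word (11.3%). Of the 174 such promoters of genes at least 1.5-fold higher, 11 held CHR (6.32%) and 3 E2F (1.72%). The 287 measured genes with both CHR and CCAAT had a median change of -0.07, and 22 of them were past 1.5-fold lower (7.67%). Among the 5289 genes with neither an E2F nor a CHR word the median was 0.04 and 1.74% were past 1.5-fold lower. The matches are a description of letters in a window and were not tested.

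Genes that hold back division were higher. Of 21 CDK inhibitor and cell cycle exit genes 19 were higher and 2 lower, and their median was 0.23, though only 2 passed 1.5-fold, or 9.52% against 3.01% of all genes. MXI1, an antagonist of MYC, went from 9.28 to 10.02 (0.74), and the CDK inhibitor CDKN1C from 5.19 to 5.90 (0.71), where its 4 probe sets ran from 0.13 to 0.71. FOXO3, a factor of quiescence, went from 8.13 to 8.69 (0.56). The better known inhibitors CDKN1A (5.57 and 5.62) and CDKN1B (6.30 and 6.45) differed by less than their local spread. CCNG2, a cyclin linked to arrest, had 7.67 in FCS and 7.17 in CSS (-0.50), and its 3 probe sets ran from -0.50 to 0.06.

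Androgen target genes did not move together. The contrast is called CSS against FCS here, since the serum and the added androgen changed together. Whether androgen signalling was lost was not tested. Of 8 measured androgen-induced secretory genes 5 were higher, against 54.7% of all genes, and 3 lower. Their median was 0.12, or -0.053 with the mean over a gene's probe sets. KLK3, which encodes prostate-specific antigen and is the standard readout of the androgen receptor, had 8.996 in FCS and 9.93 in CSS, a change of 0.94 or 1.92-fold higher. This was 3.16 times its local spread of 0.30, and its other probe set gave 0.65. KLK2, the neighbouring kallikrein protease, went from 8.39 to 9.07 (0.68), and its 3 probe sets ran from 0.22 to 0.68. Both kallikreins were therefore higher without added androgen on every measured probe set, and since the genes are close in sequence their probe sets may share transcripts. In the other direction, AZGP1, a secreted zinc-binding glycoprotein, went from 7.65 to 6.90 (-0.75), and the protease TMPRSS2 from 8.31 to 7.86 (-0.45, and -0.23 on its other probe set).

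The promoter of KLK3 is shown because its gene was higher without added androgen, although it is in the list of androgen-induced genes. It lies at chr19:50854665-50854964 on the plus strand in RefSeq on GRCh38.p14, and the capitals mark AGAACA, the hexamer of the androgen response element, at -170 from the start.
KLK3: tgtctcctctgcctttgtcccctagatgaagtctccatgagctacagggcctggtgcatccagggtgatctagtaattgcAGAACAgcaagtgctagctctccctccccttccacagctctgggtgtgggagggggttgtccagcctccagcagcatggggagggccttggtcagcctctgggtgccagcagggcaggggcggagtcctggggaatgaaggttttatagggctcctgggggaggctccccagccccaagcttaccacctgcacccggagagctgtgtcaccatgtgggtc
AGAACA, read on both strands, stood in 14.9% of all promoters, 8.43% of those of measured genes, 7.8% of those of genes at least 1.5-fold lower and 7.47% of those at least 1.5-fold higher. The full palindromic element, a pair of such hexamers, was in 1 of the 27305 promoters and in none of the measured genes. Response elements in distant enhancers lie outside this window.

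Of 35 androgen-induced genes without a secretory role, 20 were higher and 15 lower, and their median was 0.03. Past 1.5-fold were 6 lower, or 17.1% against 2.23% of all genes, and 2 higher, or 5.71% against 3.01%. FKBP5, a co-chaperone of steroid receptors, went from 8.16 to 7.28 (-0.88), and ELL2, a transcription elongation factor, from 6.21 to 5.43 (-0.78). The other 4 were the chromatin factor ATAD2 (7.90 to 7.09, -0.81), the centrosomal protein MPHOSPH9 (6.31 to 5.56, -0.75), the centromere protein CENPN and the condensin subunit NCAPD3 (6.39 to 5.80, -0.59). The other probe set of MPHOSPH9 went the other way (0.15). CENPN and NCAPD3 were counted among the mitotic genes too. Higher were NDRG1, a stress-responsive protein (8.62 to 9.31, 0.69), and KRT8, the luminal keratin (9.25 to 9.92, 0.67). Of 14 genes known to be repressed by androgen 5 were higher and 9 lower, and their median was -0.05, and IGFBP5 was the single one past 1.5-fold.

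Of 19 androgen receptor coregulators 13 were higher, against 54.7% of all genes, and 6 lower, and their median was 0.09. NCOA1, a coactivator of steroid receptors, went from 7.21 to 7.82 (0.60), but its 4 probe sets ran from -0.09 to 0.60. The SUMO ligase PIAS1 went from 7.65 to 7.15 (-0.50). The genes of steroid synthesis were mostly near or under the floor: 8 of 28 on the array were measured, 4 were higher and 4 lower, and their median was 0.00.

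Targets of other hormones that charcoal removes were also split. Of 14 glucocorticoid-induced genes 9 were higher, against 54.7% of all genes, and 5 lower, and their median was 0.27. Past 1.5-fold were 3 on each side (21.4%, against 3.01% of all genes higher and 2.23% lower). The median was -0.14 with a floor of 100 and 0.011 with a signal of at least 100. The 3 lower genes were MT2A, MT1X and FKBP5. The 3 higher genes were the leucine zipper factor TSC22D3 (9.26 to 9.94, 0.68), CEBPD (6.39 to 7.09, 0.70) and CDKN1C. Targets of retinoids (5 genes), vitamin D (7) and thyroid hormone (8) had medians of 0.01, 0.05 and -0.01, with none past 1.5-fold. Of 9 estrogen-induced genes 6 were higher, against 54.7% of all genes, and STC2 alone passed 1.5-fold (11.1%, against 3.01%).

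Metallothioneins, small cysteine-rich proteins that bind zinc and copper, were lower as a group. All 6 measured genes were lower, 4 of them (66.7%, against 2.23% of all genes) at least 1.5-fold, with a median of -0.81. MT2A went from 8.61 to 7.50 (-1.11, 2.15-fold lower), and MT1X from 8.24 to 7.44 (-0.80, and -0.77 on its other probe set). MT1G had 7.02 and 6.18 (-0.84) and MT1H 6.83 and 6.00 (-0.82). The remaining MT1F (-0.45) and MT1E (-0.23) changed by less than 1.5-fold. The family is nearly identical in sequence, so its probe sets are not independent measures.

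The promoter of MT2A is shown for its repeated core of the metal response element, TGCNCNC, a word that was added after the values had been seen. It lies at chr16:56608334-56608633 on the plus strand in RefSeq on GRCh38.p14, and the capitals mark 8 cores on either strand.
MT2A: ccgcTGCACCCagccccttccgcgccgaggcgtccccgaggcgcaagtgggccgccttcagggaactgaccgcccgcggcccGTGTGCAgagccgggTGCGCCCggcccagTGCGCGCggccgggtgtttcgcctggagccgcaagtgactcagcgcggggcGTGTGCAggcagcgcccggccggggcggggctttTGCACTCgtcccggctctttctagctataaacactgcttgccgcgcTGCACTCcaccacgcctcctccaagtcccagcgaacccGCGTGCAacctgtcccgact
Such a core stood in 55.2% of all promoters and 64.8% of those of measured genes, and in the 3 of 3 metallothionein promoters that the table held.

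Genes of the integrated stress response, by which cells answer amino acid shortage and misfolded proteins through the factor ATF4, were higher. Of 28 measured genes 24 were higher and 4 lower, 7 of them at least 1.5-fold (25%, against 3.01% of all genes), with a median of 0.34. STC2, a secreted glycoprotein, went from 7.17 to 8.72 (1.55, 2.93-fold higher), and its other probe set gave 0.56. ATF3, a transcription factor, went from 7.56 to 8.72 (1.16), and DDIT4, an inhibitor of mTORC1, from 7.70 to 8.79 (1.09). CHAC1, which breaks down glutathione, went from 5.66 to 6.80 (1.14). These 4 genes had the largest changes of the list.

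Amino acid genes of the same list were higher by less, at higher signal. ASNS, asparagine synthetase, went from 10.30 to 10.95 (0.65), SLC7A5, a transporter of large neutral amino acids, from 8.78 to 9.50 (0.72), and GARS1, the glycyl-tRNA synthetase, from 10.42 to 11.05 (0.63). Other factors of the pathway changed by less than 1.5-fold. CEBPB, a partner of ATF4, had 9.24 in FCS and 9.72 in CSS (0.48). ATF4 itself had 11.67 and 11.75, DDIT3 7.93 and 8.08, and TRIB3, an inhibitor of ATF4, 10.67 and 10.43. ATF4 is controlled largely in translation, which arrays do not measure.

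The promoter of ASNS is shown because it carries the composite C/EBP-ATF word TGATGNAA through which ATF4 acts, also added after the values had been seen. It lies at chr7:97872359-97872658 on the minus strand in RefSeq on GRCh38.p14, and the capitals mark the match at -68.
ASNS: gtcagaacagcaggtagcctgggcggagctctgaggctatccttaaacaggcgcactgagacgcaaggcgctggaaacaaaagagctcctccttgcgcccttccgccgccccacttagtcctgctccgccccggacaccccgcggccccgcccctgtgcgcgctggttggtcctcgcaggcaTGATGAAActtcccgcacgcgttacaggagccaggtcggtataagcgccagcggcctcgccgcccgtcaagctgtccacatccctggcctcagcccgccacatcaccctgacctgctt
The word, read on both strands, stood in 3.67% of all promoters, 1.5% of those of measured genes and 7 of 23 of this list (30.4%). It was in 8 of 174 promoters of genes at least 1.5-fold higher (4.6%) and in 1 of 141 of those at least 1.5-fold lower (0.709%). CHAC1 and ATF3 held it as well.

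Folding factors of the endoplasmic reticulum showed no such shift. Of 31 genes 17 were higher and 14 lower, and their median was 0.03. SDF2L1, a cofactor of the chaperone BiP, was among the largest decreases of all genes, with 8.32 in FCS and 7.09 in CSS (-1.22), and KDELR3, a receptor that retrieves chaperones, was higher (6.50 to 7.23, 0.74).

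Immediate-early and serum response genes were higher by small amounts. Of 22 genes 21 were higher, against 54.7% of all genes, with a median of 0.25, and 2 passed 1.5-fold (9.09%, against 3.01%). These were ATF3, which is in the integrated stress list too, and the AP-1 factor JUND. JUND went from 9.003 to 9.96 (0.96) with 0.67 as the lowest of its 3 probe sets. Of 24 hypoxia and glycolysis genes 19 were higher, against 54.7% of all genes, and 5 lower, and their median was 0.21. Past 1.5-fold higher were 3 (12.5%, against 3.01%). ALDOC, a glycolytic aldolase, went from 6.24 to 7.18 (0.94), and NDRG1 and MXI1 are members of this list too. The collagen hydroxylase P4HA1 had 7.94 and 8.50 (0.56).

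**Figure D2:**
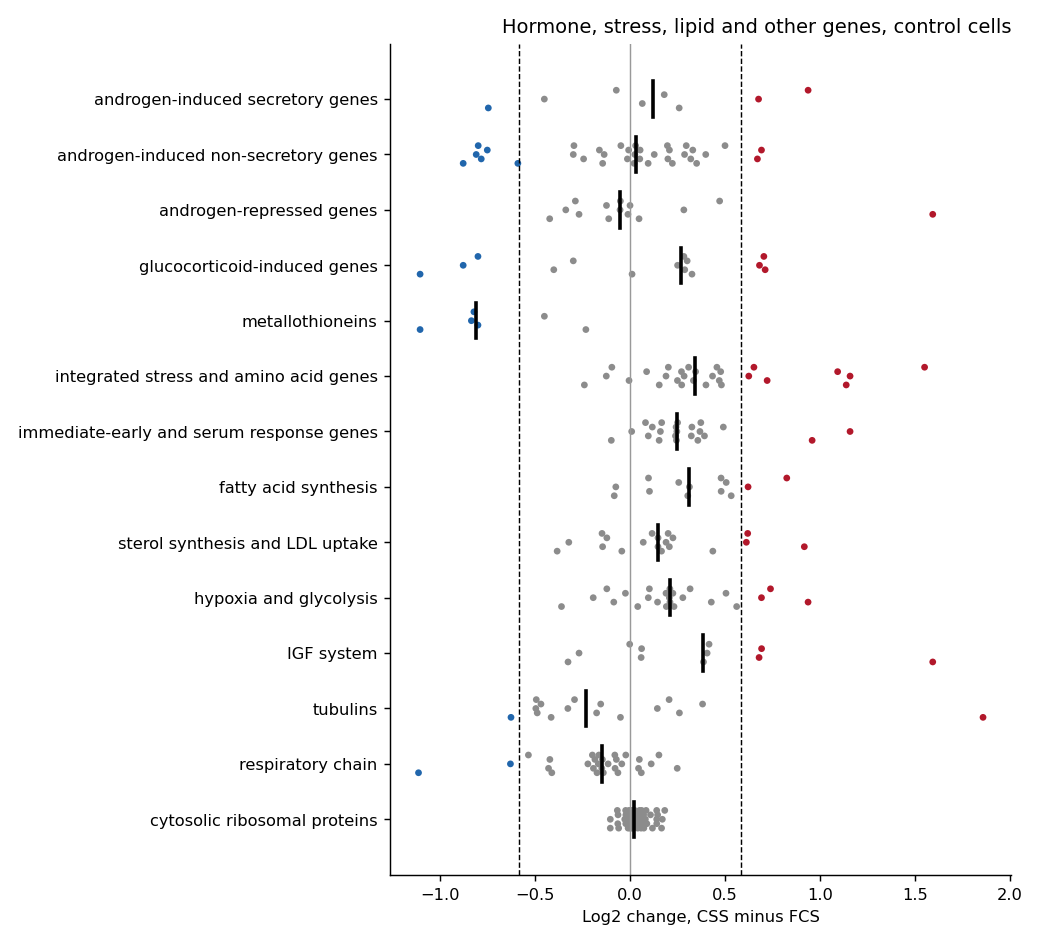
Each point is a gene of the list named on the y axis, placed by its log2 change, CSS minus FCS, in control cells; black bars are list medians and dashed lines mark 1.5-fold. The median of the metallothioneins is -0.81, that of the integrated stress genes 0.34 and that of the cytosolic ribosomal proteins 0.02, while the androgen-induced lists spread to both sides.

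Fatty acid synthesis genes were mostly higher. Of 13 measured, 11 were higher, against 54.7% of all genes, and 2 passed 1.5-fold (15.4%, against 3.01%), with a median of 0.31. SREBF1, the factor that drives these enzymes, went from 7.38 to 8.20 (0.83), FASN, the fatty acid synthase, from 10.03 to 10.54 (0.51), and SCD, the stearoyl-CoA desaturase, from 10.44 to 10.91 (0.48), although the lowest of the 4 SCD probe sets gave -0.88. Of 19 genes of sterol synthesis and LDL uptake 13 were higher, not far from the 54.7% of all genes, and 3 passed 1.5-fold (15.8%, against 3.01%), with a median of 0.15. LSS, the lanosterol synthase, went from 7.89 to 8.81 (0.92, lowest of 3 probe sets 0.18), DHCR7, the last enzyme of cholesterol synthesis, from 7.82 to 8.43 (0.61) and SREBF2 from 6.94 to 7.56 (0.62, lowest 0.14). HMGCS1, an early enzyme of the pathway, had 7.72 and 7.57 (-0.15, and -0.56 on its other probe set). Fatty acid oxidation and PPAR targets were higher in 12 of 16 genes with a median of 0.15 and none past 1.5-fold, and LXR targets in 5 of 10.

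The insulin-like growth factor system held 3 of 11 genes past 1.5-fold higher (27.3%, against 3.01% of all genes) and a median of 0.39, or 0.061 with the mean over a gene's probe sets. IGFBP5, which binds the growth factors, went from 5.36 to 6.96 (1.59), but its 4 probe sets ran from -0.03 to 1.59. IGF1R, their receptor, went from 6.08 to 6.77 (0.69), with -0.06 on its other probe set, and the ligand IGF1 from 4.79 to 5.47 (0.68 and 0.59), close to the floor. IGF1 was thus the member with both measured probe sets past 1.5-fold, at low signal. Its remaining probe sets were at the floor in FCS, and gave bounds of 0.07 and 1.02.

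Cytoskeletal genes split by family member. Of 16 tubulins and tubulin folding factors 11 were lower, against 45.1% of all genes, with a median of -0.23. The abundant TUBA1B (12.15 to 11.74, -0.42), TUBA1C (12.01 to 11.52, -0.49) and TUBB (11.16 to 10.66, -0.49) were lower on each of their 5, 2 and 3 probe sets. Their changes exceeded the local spread at that brightness, which was 0.20 to 0.24. TUBA1A, the α-tubulin of neurons and of migrating cells, had the largest increase of all genes, from 4.59 to 6.45 (1.86, 3.63-fold higher), on a single probe set whose signal in FCS was near the floor. Of 11 annexins and S100 proteins 9 were higher, against 54.7% of all genes, and 2 passed 1.5-fold (18.2%, against 3.01%). These were the partners S100A10 (7.56 to 8.54, 0.98) and ANXA2 (8.61 in CSS, with changes of 0.61 to 0.74 over 3 probe sets), which form a complex at the plasma membrane.

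Genes of the respiratory chain were lower in 23 of 29 cases, against 45.1% of all genes, with a median of -0.15. Past 1.5-fold lower were 2 (6.9%, against 2.23%). NDUFB8, a subunit of complex I, went from 10.28 to 9.16 (-1.11, and -0.95 on its other probe set), and SDHA, of complex II, from 9.52 to 8.89 (-0.63). The other subunits changed by less than 1.5-fold on their brightest probe sets. SDHC had -0.535 there, but its probe sets ran from -0.97 to -0.22. Cytosolic ribosomal proteins, a group of bright probe sets, were the most stable: 37 of 53 were higher, none by 1.5-fold, and their median was 0.02, with a range from -0.10 to 0.18. Of 11 genes of MHC class I presentation 7 were higher and 4 lower, and B2M, the light chain of the complex, went from 9.72 to 9.02 (-0.71). The aryl hydrocarbon receptor AHR had 5.42 and 5.91 (0.49), and its target CYP1A1 had 5.56 and 5.28.

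Probe sets of a gene gave a check within the arrays. Of 2472 genes with 2 or more measured probe sets, 15 (0.607%) had all of them past 1.5-fold higher, and in 20 (0.809%) all were past 1.5-fold lower. In all, 152 of the 392 genes past 1.5-fold had more than 1 measured probe set, and in 121 of these all probe sets went the same way. The 20 lower genes included RRM1, RRM2, CHEK1, CDC6, TOP2A, CCNA2, CDK2, the DNA polymerase POLQ, the histone chaperone DNAJC9 and KPNA2, a nuclear import factor with 10.57 in FCS and 9.53 in CSS (-1.04). The 15 higher genes included KLK3, JUND, ANXA2 and IGF1. Others were the microtubule protein MAPT (6.11 to 6.85, 0.75 to 0.93 over 3 probe sets), the motor KIF5C (8.27 to 8.97, 0.70 and 0.93), the factor SOX11 (7.40 to 8.30, 0.82 to 1.15 over 3 probe sets), the actin binder DBN1 (6.77 to 7.45, 0.68 and 0.74) and the guidance protein SEMA5A (7.57 to 8.24, 0.66 and 0.76). Of the 5 neuroendocrine and neuronal genes measured out of 23 on the array, 3 were higher, and the receptor ROBO1 (7.60 to 8.24, 0.63) was the single one past 1.5-fold.

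Further genes of the largest changes have no place in these lists. Higher were MAGED1, an adaptor of p75 signalling (7.65 to 8.86, 1.22), CKAP4, a membrane protein of the endoplasmic reticulum (6.50 to 7.66, 1.15), SATB1, a chromatin organiser (6.36 to 7.51, 1.15), and the zinc finger repressor ZNF652 (6.23 to 7.33, 1.10). Lower were ID1, an inhibitor of differentiation factors (8.36 to 7.10, -1.26), the ribosome biogenesis factor EMG1 (7.67 to 6.67), the nuclear pore protein NUP37 (7.89 to 6.90, -0.99) and the linker histone H1-2 (8.16 to 7.21, -0.95). Genes at the floor on 1 array have only a bound: 4 were past 1.5-fold in CSS and 3 in FCS by it, among the latter WDHD1, a replication factor with 5.09 in FCS and a signal under the floor in CSS.

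The β-TrCP shRNA cells gave a second pair of arrays with the same change of medium and no array in common with the control pair. Their CSS array stood apart from the other 3, with correlations of 0.933 to 0.934 and an interquartile range of 2.07 against 2.68 to 2.74, so that the pair is given as deposited and after quantile normalization of the 4 arrays. Of the 167 genes at least 1.5-fold lower in control cells, 158 were lower in the shRNA pair as deposited (94.6%, against 72.1% of all genes) and 146 after normalization (87.4%, against 54.3%). Of the 225 higher genes, 80 were higher as deposited (35.6%, against 27.9%) and 138 after normalization (61.3%, against 45.5%).

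After normalization the medians of the 9 lists of division genes in the shRNA pair ran from -0.85 to -0.33, that of the metallothioneins was -0.45 and that of the integrated stress genes 0.16, with 20 of 28 higher, against -0.06 for all genes. Other lists that were higher in control cells were mixed in this pair, where 45.5% of all genes were higher and 54.3% lower after normalization. Sterol synthesis had a median of -0.44 (14 of 19 lower) and the glucocorticoid-induced genes -0.29 (9 of 14 lower). The immediate-early genes had -0.17 (13 of 22 lower), hypoxia and glycolysis -0.09 (14 of 24 lower) and fatty acid synthesis 0.04 (7 of 13 higher). Lists that stayed higher included the annexins and S100 proteins, with a median of 0.49 (10 of 11 higher). The CDK inhibitors and cell cycle exit genes had 0.24 (15 of 21 higher). The IGF system was nearer to the mixed lists, with 0.19 (6 of 11 higher). For single genes, the normalized shRNA pair changed by -1.86 for RRM2, -0.84 for PCNA, -0.33 for CDC20, -0.67 for MT2A and -0.77 for MT1X. It changed by 0.28 for STC2, 0.44 for ASNS, -0.52 for ATF3 and -0.01 for CHAC1. KLK3 had 8.08 in FCS and 7.55 in CSS there, a change of -0.53 as deposited, where the median of all genes was -0.35, and of -0.01 after normalization. KLK2 had 7.22 and 6.21, or -1.01 and -0.48. FKBP5 had 7.36 and 6.86, a change of -0.51 as deposited and 0.04 after normalization. TUBA1A (1.11) and IGFBP5 (1.81) were higher in this pair too after normalization, while ID1 was lower (-0.34) and SDF2L1 was higher (0.79). Whether the pairs differ was not tested, since each has 1 array a side.

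**Figure D3:**
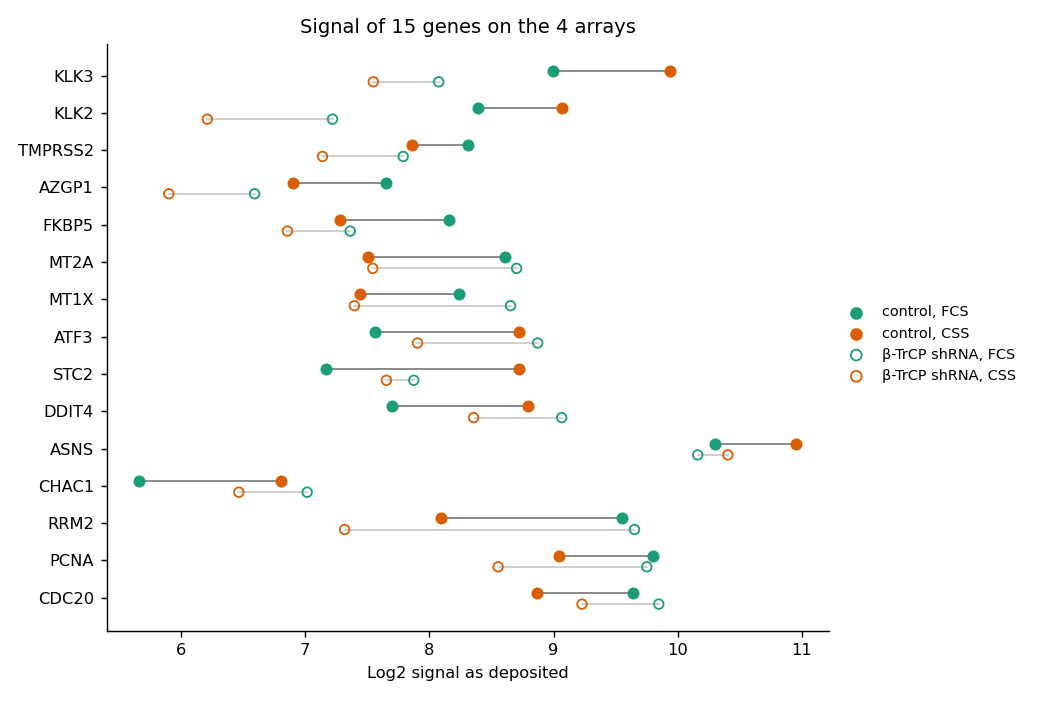
Log2 signal as deposited, on the x axis, of 15 genes on the 4 arrays; filled circles are control cells and open circles β-TrCP shRNA cells, green for FCS and orange for CSS, joined within a pair. MT2A, MT1X, RRM2, PCNA and CDC20 are lower in CSS in both pairs, while KLK3, KLK2, ATF3 and DDIT4 are higher in CSS in control cells and lower in shRNA cells.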

How the data were processed

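Total RNA was extracted with Trizol from LAPC4 cells, labelled as biotinylated cRNA and hybridized to Affymetrix U133 arrays, 1 array for each of 4 conditions. The authors deposited 1 table of log2 values for all probe sets. Their methods and the labels name MAS5, and it was not tested whether the values were scaled in another way. The labels name a GFP control, the study's methods the vector alone and its results the shRNA vector without induction, and the labels were followed.

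The change was the deposited log2 value in CSS minus that in FCS, with values under a signal of 20 set to that floor and no normalization added. The 62 control probe sets were left out. GEO's annotation, with symbols updated through RefSeq, gave a single gene to 19064 probe sets, more than 1 gene to 1043 and no gene to 2108. The brightest probe set stood for a gene. With 1 array a side there is no test, and the number of arrays limits the precision. Genes were counted past 1.5-fold and 2-fold, and the local spread was 1.4826 times the median absolute deviation over 1000 neighbours.

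The members, the 47 gene lists and the genes named were chosen with earlier results of these data known. Genes named were the 15 largest increases and decreases with at least the median signal and probe sets in 1 direction, genes with all of 2 or more probe sets past 1.5-fold, up to 4 members of each list, and genes of the study's question. NUDT1, which is in no list, GINS4 and other list members named beyond this were picked after their values were seen. Alternatives in floor, filter, normalization and probe set choice were recomputed. The steps were tested on simulated data with Python 3.11.15, numpy 2.4.6 and pandas 2.3.3.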

Additional observations from a re-analysis of the deposited data

Results flagged for a closer look

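Of the 202 named genes measured on both control arrays, 51 had opposite directions with CSS in the control pair and the β-TrCP shRNA pair on both scales, as deposited and after quantile normalization of the 4 arrays. Of these, 39 were higher in control cells and 12 lower. Of all 7485 genes, 72.1% were lower in the shRNA pair as deposited and 54.3% after normalization, the same way as the 39. The count of opposite directions was not made over all genes. The 9 given here also passed 1.5-fold in control cells on both scales, and changed in shRNA cells by at least the gene's local spread on both. With 1 array a side the difference was not tested, and the CSS array of the shRNA cells stood apart from the others.

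These 9 were higher in CSS in control cells and lower in shRNA cells. The widest gap was at PMAIP1, a pro-apoptotic BH3 protein, with 0.72 in control cells against -2.25 in shRNA cells (-2.04 after normalization). ZNF652, a zinc finger repressor, had 1.10 against -1.38 (-1.46). The stress genes ATF3 and DDIT4 had 1.16 against -0.97 (-0.52) and 1.09 against -0.71 (-0.33). The androgen target KLK2 had 0.68 against -1.01 (-0.48), and the growth factor receptor IGF1R 0.69 against -0.69 (-0.38). The sterol enzyme DHCR7 had 0.61 against -0.99 (-0.49), the lysosomal protease CTSZ 0.80 against -0.60 (-0.30), and BICRAL, a subunit of a chromatin remodelling complex, 0.75 against -0.40 (-0.46). In control cells the other probe sets of CTSZ (-0.12) and IGF1R (-0.06) were not higher in CSS.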

How the results depend on the processing

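The count of genes at least 1.5-fold higher was 225 and became 98 with a floor of 100, 358 over probe sets and 15 where all of 2 or more probe sets had to pass. The count at least 1.5-fold lower was 167 and became 96, 401 and 20 under the same settings. At 2-fold, the 18 higher genes became 4, 28 and 0, and the 10 lower genes 31 over probe sets and 1 with all probe sets. Higher against lower genes at 1.5-fold were 194 and 198 with a common median, 208 and 176 with quantile normalization of the 2 arrays, 198 and 171 with that of 4 arrays, and 165 and 148 with the mean over probe sets.

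Of the list medians, 2 turned: the androgen-induced secretory genes to -0.053 with the mean over probe sets, and the glucocorticoid-induced genes to -0.14 with a floor of 100 (0.011 with a signal of at least 100, 0.10 with the mean over probe sets). With a floor of 100 and with a signal of at least 100 the medians were 0.46 and 0.46 for estrogen-induced genes, 0.41 and 0.41 for LXR targets, -0.36 and -0.36 for G1/S cyclins and E2F factors, -0.20 and -0.20 for the AhR pathway, and 0.35 and 0.38 for annexins and S100 proteins. Tubulins were at -0.37 with a floor of 100. The IGF system was at 0.27 with no floor and 0.061 with the mean over probe sets, and the luminal markers at 0.10 with that mean. The other 323 list values and 1449 of the values of named genes stayed within the limit set, 12 of the latter moved, and none reversed. No paired analysis was possible because each group has 1 array. The cause of these shifts was not tested.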

Other observations

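The ID proteins, which bind differentiation factors and keep them off DNA, were lower in CSS for 3 of the 4 measured members, a family chosen after its values were seen. ID1 went from 8.36 to 7.10 (-1.26), ID3 from 7.71 to 6.90 (-0.82) and ID2 from 7.30 to 6.78 (-0.52, and -0.04 on its other probe set), while ID4 had 9.27 in FCS and 9.62 in CSS (0.36). In the shRNA pair after normalization ID1, ID3 and ID2 changed by -0.34, 0.12 and -1.51, so ID3 did not keep its direction there.

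Lysosome and autophagy genes were higher in 17 of 24 cases, against 54.7% of all genes, with a median of 0.07. Those past 1.5-fold were the protease CTSZ (5.98 to 6.78, 0.80, but -0.12 on its other probe set) and the acid lipase LIPA (6.85 to 7.59, 0.75). In the other direction was the sialidase NEU1 (8.12 to 7.27, -0.85). Of 19 p53 targets and apoptosis genes 11 were higher, with a median of 0.05 and PMAIP1 as the single gene past 1.5-fold. Interferon-stimulated genes had a median of 0.02 over 9 genes and none past 1.5-fold, and polyamine genes, an androgen-dependent pathway of the prostate, 6 higher and 6 lower with a median of 0.00, with the transporter ATP13A2 at 0.75.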
